A study of Mus musculus with 8 samples.

Results

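The genes described here are 10 of the MHC class I antigen presentation pathway, out of 18605 genes measured in C3H10T1/2, a line of mouse mesenchymal stem cells that was made from C3H embryos. They are *B2m*, *H2-K1*, *H2-D1*, *H2-Q6*, *H2-T23*, *Tap1*, *Tap2*, *Tapbp*, *Psmb8* and *Psmb9*. The members were chosen by name after earlier results of these same counts were known, among them their lower level in the cells labelled KD-Nap1l2 than in NC before induction. That contrast is therefore given as a description, and the counts of calls printed for it support nothing. All 10 passed the filter on low counts.

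RNA was sequenced from 4 groups of 2 libraries. NC cells carried the non-target control and KD-Nap1l2 cells an shRNA against *Nap1l2*, a histone chaperone gene, delivered by lentivirus, and both were grown without induction. NC-7d and KD-Nap1l2-7d are the same 2 kinds of cells after 7 days of osteogenic induction, in a medium that holds dexamethasone, ascorbic acid and β-glycerol phosphate. All cells came from 1 line and carried a control or a targeting construct, and the shRNA used for sequencing is not named in the sources used here. No source says whether the 2 libraries of a group came from separate cultures, so p-values measure only the spread between these libraries.

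Library totals ran from 17420284 to 19427359 estimated counts. *Nap1l2* itself had 3 and 3 counts in NC, 2 and 7 in KD-Nap1l2, 15 and 5 in NC-7d, and 7 and 13 in KD-Nap1l2-7d. The knockdown is not visible in these counts, which are too few to show it or its absence. The libraries are therefore called by their labels. The paper reports the knockdown in this line by Western blot and qPCR. Of 16 immune cell markers, 11 were in the table, and they summed to 31 to 134 counts per library, with 14.7 to 103 counts for *Lyz2*. *Ptprc*, which encodes the pan-leukocyte marker CD45, had 0 to 4 counts in every library, and *Cd3e*, *Cd3g* and *Ncr1* were under 3 counts in all. The endothelial markers summed to 30 to 121 counts, and the 12 mesenchymal markers to 215646 to 494191. Most of the mesenchymal sum came from *Vim*, *Col1a1*, *Col1a2* and *Col3a1*, while *Thy1* had 19 to 183 counts and *Nt5e* 0 to 3. In bulk RNA, fewer cells with a transcript and less of it per cell cannot be told apart.

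Class I molecules show fragments of the proteins a cell makes to CD8 T cells. Proteasomes cut those proteins, and in cells exposed to interferon the subunits encoded by *Psmb8*, *Psmb9* and *Psmb10* take the place of the constitutive catalytic subunits encoded by *Psmb5*, *Psmb6* and *Psmb7*. The TAP transporter carries the peptides into the endoplasmic reticulum, tapasin helps to load them, and the loaded heavy chain with β2-microglobulin travels to the surface. Mesenchymal cells carry class I at their surface, and interferon raises it.

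In GRCm38.p6, 9 of the 10 genes lie on chromosome 17 in the H2 region, and *B2m* lies on chromosome 2 (chr2:122147687-122153082). *Psmb9* (chr17:34182030-34187330), *Tap1* (chr17:34187556-34197225), *Psmb8* (chr17:34198195-34201454) and *Tap2* (chr17:34204479-34216321) follow one another within 34292 bases. *Tapbp* (chr17:33919478-33929290) and *H2-K1* (chr17:33996012-34000619) lie on one side of them, and *H2-D1* (chr17:35263094-35267497), *H2-Q6* (chr17:35424850-35430055) and *H2-T23* (chr17:36029977-36032701) on the other. The reference strain C57BL/6J and the C3H strain carry different H2 haplotypes, and the heavy chain genes are polymorphic with near-identical copies. How reads were divided among the heavy chain genes is therefore uncertain, and their values may shift between neighbours.

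The starts of *Psmb9* and *Tap1* are 226 bases apart and the genes point away from each other, so the stretch between them serves as the upstream region of both. It is shown with the 200 bases before the annotated start of *B2m* and of 3 heavy chain genes, because their products form 1 complex at the surface. Sequences are from RefSeq (GRCm38.p6), 5′ to 3′ on the gene's strand, and for the *Psmb9* and *Tap1* stretch on the strand of *Tap1*. For *H2-K1*, windows of 2 starts were available, and the downstream start was used. The gene as given above runs to 34000619, so the stretch shown for it lies within the annotated gene. Capitals mark matches on either strand to GAAANNGAA (core of the interferon-stimulated response element), TTCNNNGAA (gamma-activated sequence), GGNNTTNCC (NF-κB), CCAAT (NF-Y), TGACG (core of the cyclic AMP response element) and GGGCGG (Sp1). The positions are chr2:122147487-122147686 on the plus strand for *B2m*, chr17:34000334-34000533 on the minus strand for *H2-K1*, chr17:35262894-35263093 on the plus strand for *H2-D1*, chr17:35424650-35424849 on the plus strand for *H2-Q6* and chr17:34187331-34187555 on the plus strand for the stretch between *Psmb9* and *Tap1*.
B2m: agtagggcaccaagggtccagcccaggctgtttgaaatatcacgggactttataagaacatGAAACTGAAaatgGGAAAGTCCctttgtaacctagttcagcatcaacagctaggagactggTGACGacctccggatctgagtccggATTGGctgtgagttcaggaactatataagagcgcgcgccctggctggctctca
H2-K1: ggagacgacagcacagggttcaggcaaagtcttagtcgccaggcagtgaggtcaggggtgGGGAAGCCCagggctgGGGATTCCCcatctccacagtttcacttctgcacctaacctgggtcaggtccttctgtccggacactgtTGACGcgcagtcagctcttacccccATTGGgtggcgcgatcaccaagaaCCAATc
H2-D1: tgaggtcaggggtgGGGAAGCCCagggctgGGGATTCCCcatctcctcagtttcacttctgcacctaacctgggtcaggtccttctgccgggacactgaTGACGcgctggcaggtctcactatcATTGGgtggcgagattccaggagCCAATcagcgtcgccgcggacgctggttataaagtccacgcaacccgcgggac
H2-Q6: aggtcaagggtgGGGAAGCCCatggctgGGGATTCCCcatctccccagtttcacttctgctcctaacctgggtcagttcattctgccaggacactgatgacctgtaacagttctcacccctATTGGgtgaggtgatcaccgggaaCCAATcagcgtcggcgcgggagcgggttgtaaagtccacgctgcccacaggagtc
Psmb9-Tap1: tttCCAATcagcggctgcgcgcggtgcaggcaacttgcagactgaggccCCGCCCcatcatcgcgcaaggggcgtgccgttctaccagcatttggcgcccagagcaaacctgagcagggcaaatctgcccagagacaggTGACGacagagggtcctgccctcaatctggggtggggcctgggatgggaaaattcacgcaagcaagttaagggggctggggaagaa

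*H2-K1*, *H2-D1* and *H2-Q6* each held a pair of GGNNTTNCC matches followed by 2 CCAAT matches. Lined up without gaps on the second GGNNTTNCC match, *H2-K1* and *H2-D1* had the same letter at 128 of 152 positions (84.2%), *H2-D1* and *H2-Q6* at 113 (74.3%), and *H2-K1* and *H2-Q6* at 105 (69.1%). *B2m*, on another chromosome, held 1 GGNNTTNCC match beside a GAAANNGAA match.

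Windows from 250 bases before to 50 after the start were found for 9 members, and none was in the table used here for *Tap2*. GGNNTTNCC was in the windows of 4 of the 9 (*B2m*, *H2-K1*, *H2-D1* and *H2-Q6*), against 16% of all 32851 windows. CCAAT was in 8 of the 9, all but *Psmb8*, against 37.4% of windows. TGACG, which overlaps the longer TGACGTCA, was in 5 (*B2m*, *H2-K1*, *H2-D1*, *Tap1* and *Psmb9*) against 20.8%, while TGACGTCA was in 0 of the 9 against 1.79%. GAAANNGAA was in *B2m* and *H2-T23* against 8.56% of windows, TTCNNNGAA in *Psmb8* against 8.3%, and GGGCGG in *Tap1*, *Tapbp* and *Psmb9* against 35.7%. *Tap1* and *Psmb9* share all their matches, which lie between them, and windows that overlap are not independent. A match describes the letters only, and the lack of a match does not show that an element is absent. The sequences of *H2-K1*, *H2-D1* and *H2-Q6* share the stretch agtttcacttct after their GGNNTTNCC pair. GAAANNGAA as written cannot match that stretch on either strand. Other spacings of the interferon-stimulated response element were not searched.

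**Figure D1:**
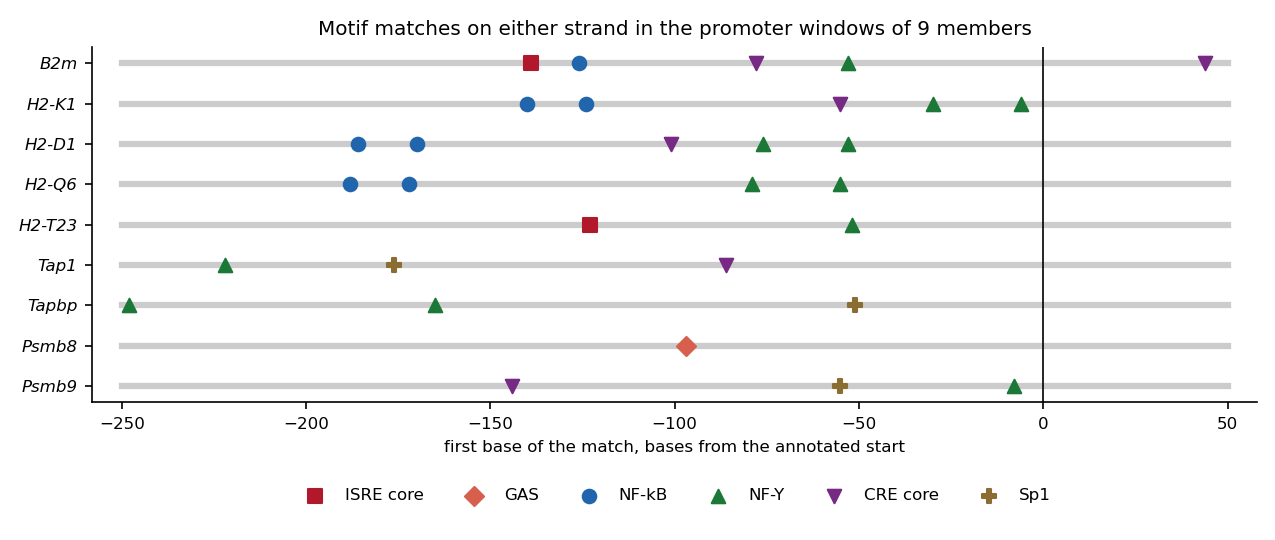
Position of each motif match along the promoter windows of 9 members, in bases from the annotated start (0), with 1 marker shape per motif and 1 row per gene. The 2 NF-kB matches of *H2-K1*, *H2-D1* and *H2-Q6* sit side by side before their 2 NF-Y matches, and the only match in *Psmb8* is of the gamma-activated sequence.

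Levels are compared between genes in FPKM, which is scaled to gene length. *B2m* was the most abundant member by far, ranking 1 to 9 among 18605 genes in the 8 libraries. *H2-K1* and *H2-D1*, the classical heavy chains, ranked 74 to 442 and 110 to 392. *H2-T23*, which encodes Qa-1, ranked 244 to 1036, and *Tapbp*, which encodes tapasin, ranked 347 to 1336. *Psmb9*, *Tap2* and *Tap1* came next, and *H2-Q6* (1897 to 7093) and *Psmb8* (3111 to 10041) were lowest. In NC, the libraries of *B2m*, *H2-K1*, *H2-D1* and *H2-T23* followed each other in that order without overlap, while *H2-T23* overlapped with *Tapbp*, *Tapbp* with *Psmb9*, and *Tap2* with *Tap1*. In NC-7d, *H2-K1*, *H2-D1* and *H2-T23* overlapped between libraries, although *H2-T23* was the lowest of the 3 within each library. Together the members held 0.742% and 0.942% of the counts in NC, 0.351% and 0.298% in KD-Nap1l2, 0.527% and 0.303% in NC-7d, and 0.491% and 0.580% in KD-Nap1l2-7d.

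The light chain came first in level. *B2m*, which encodes β2-microglobulin, had 5413 and 6621 FPKM in NC, 2599 and 2294 in KD-Nap1l2, 3902 and 2377 in NC-7d, and 3827 and 4504 in KD-Nap1l2-7d. Both NC libraries were above all the others, and both KD-Nap1l2 libraries were below both KD-Nap1l2-7d libraries. Of the NC-7d libraries, 1 lay among those of KD-Nap1l2 and 1 among those of KD-Nap1l2-7d.

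The classical heavy chain gene *H2-K1* had 613 and 783 FPKM in NC, 252 and 189 in KD-Nap1l2, 361 and 153 in NC-7d, and 347 and 385 in KD-Nap1l2-7d. *H2-D1*, also classical, had 506 and 597 FPKM in NC, 239 and 184 in KD-Nap1l2, 324 and 168 in NC-7d, and 318 and 361 in KD-Nap1l2-7d. Both genes were highest in the 2 NC libraries and lowest in the second NC-7d library. *H2-K1* stood at 1.21 and 1.31 times *H2-D1* in NC and at 0.907 to 1.11 times it in the other 6 libraries. *H2-K1* is listed with 9 transcripts, and its curated transcript took only 1.11% to 3.63% of its counts, the rest going to 8 predicted models. One of those models took 59.6% to 64.5% in every library.

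*H2-Q6*, a nonclassical heavy chain gene of the Qa-2 family, had 37.1 and 43.1 FPKM in NC, 14.7 and 11.8 in KD-Nap1l2, 13.4 and 9.18 in NC-7d, and 15.9 and 28.6 in KD-Nap1l2-7d. *H2-T23*, whose product presents leader peptides of other class I molecules, had 181 and 280 FPKM in NC, 73.5 and 72.7 in KD-Nap1l2, 191 and 98.1 in NC-7d, and 124 and 173 in KD-Nap1l2-7d. It was the 1 member for which an induced control library (191 FPKM) exceeded a library of NC (181 FPKM). Summed over the 4 heavy chains, the FPKM of *B2m* was 4.05 and 3.89 times theirs in NC, and 4.38 to 5.55 times in the other 6 libraries.

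The transporter subunit genes were close to each other in level. *Tap1* had 45.2 and 73.1 FPKM in NC, 27.2 and 17.9 in KD-Nap1l2, 40.9 and 17.8 in NC-7d, and 33.0 and 37.7 in KD-Nap1l2-7d. *Tap2* had 57.5 and 89.0 FPKM in NC, 34.5 and 24.9 in KD-Nap1l2, 56.8 and 43.1 in NC-7d, and 41.2 and 46.8 in KD-Nap1l2-7d. *Tap2* was the higher of the pair in every library, at 1.22 to 1.40 times *Tap1* in 7 of them and 2.41 times in the second NC-7d library.

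*Tapbp*, the gene of the loading chaperone tapasin, had 122 and 196 FPKM in NC, 71.4 and 66.3 in KD-Nap1l2, 97.2 and 64.6 in NC-7d, and 59.8 and 85.1 in KD-Nap1l2-7d. Outside NC, its libraries of the 3 other groups overlapped. Its 2 curated transcripts shared the counts, and the one with more counts over all libraries held 37.6% to 59.8% of them, less than the other in NC-7d replicate 1.

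The inducible proteasome subunits showed the widest range. *Psmb8*, which encodes the subunit also called LMP7, had 20.5 and 25.9 FPKM in NC, 4.61 and 2.67 in KD-Nap1l2, 8.33 and 3.03 in NC-7d, and 4.43 and 6.39 in KD-Nap1l2-7d, resting on 59 to 608 counts per library. *Psmb9*, which encodes LMP2, had 92.8 and 147 FPKM in NC, 34.8 and 19.5 in KD-Nap1l2, 43.7 and 21.6 in NC-7d, and 32.8 and 45.9 in KD-Nap1l2-7d. For both genes the NC libraries stood well above the other 6, and those 6 overlapped across groups.

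**Figure D2:**
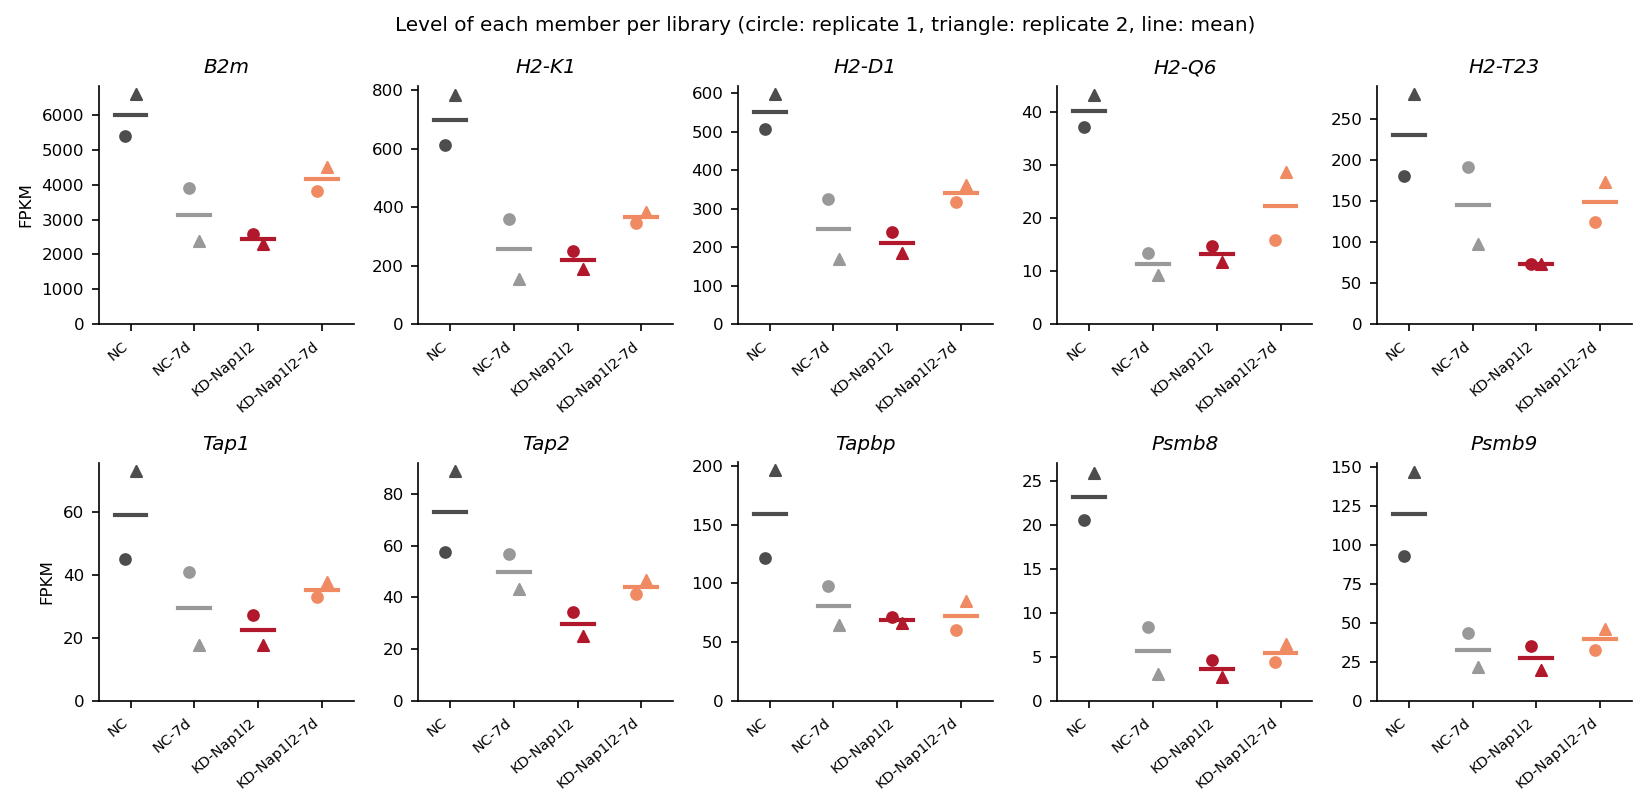
FPKM of each of the 10 members (1 panel per gene, axis from 0) in the 4 groups on the horizontal axis. Circles are replicate 1, triangles replicate 2 and lines the mean of 2 libraries; the NC libraries are the highest 2 for every gene except *H2-T23*, and the 2 NC-7d libraries lie far apart.

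The members were high or low together within groups as well as between them. On CPM, counts scaled to library size with TMM, in NC 10 of 10 were higher in replicate 2, by a median of 1.39 times. In NC-7d, 10 of 10 were higher in replicate 1, by a median of 2.03 times and up to 2.87 times for *Psmb8*. In KD-Nap1l2-7d, 10 of 10 were higher in replicate 2, by a median of 1.30 times, and in KD-Nap1l2, 8 of 10 were higher in replicate 1, all but *H2-T23* and *Tapbp*. Of all 13470 genes tested, 49.5% to 52.3% were higher in replicate 1, depending on the group. Over the 8 libraries, Pearson's r between pairs of members on log2 CPM ran from 0.707 (*H2-Q6* and *Tap2*) to 0.998 (*H2-K1* and *H2-D1*), with a median of 0.916 over 45 pairs. These are descriptions, since the 8 libraries are 4 groups of 2.

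Fold changes below are on the log2 scale, fitted to counts with edgeR, with their standard errors. In the contrast that chose the members, KD-Nap1l2 against NC before induction, the median difference was -1.51, against 0.01 over all genes tested. The proteasome subunits lay lowest, with *Psmb8* at -2.69 ± 0.47 and *Psmb9* at -2.16 ± 0.41. The heavy chains were at -1.67 ± 0.37 (*H2-K1*), -1.66 ± 0.35 (*H2-T23*), -1.61 ± 0.30 (*H2-Q6*) and -1.39 ± 0.30 (*H2-D1*). *Tap1* (-1.41 ± 0.40), *Tap2* (-1.31 ± 0.25), *B2m* (-1.31 ± 0.26) and *Tapbp* (-1.21 ± 0.30) lay in the upper part of the range with *H2-D1*. On CPM, which is the scale of every count of libraries that do not overlap, the 2 groups were apart for 10 of 10 members, as for 21.2% of all genes in this direction. edgeR called 0 members at an adjusted p-value under 0.05, where it called 0.0594% of genes lower, and 10 had an unadjusted p-value under 0.05, as did 6.73% of genes lower. DESeq2 called 10 members lower, against 2% of genes. Nothing is read from these counts, since the contrast was known when the members were chosen.

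After 7 days of induction, KD-Nap1l2-7d against NC-7d used no library of the contrast that chose the members. The members did not differ as a group in one direction, with 7 higher and 3 lower in KD-Nap1l2-7d and a median of 0.26. *H2-Q6* was the highest at 0.98 ± 0.30, and its libraries (15.9 and 28.6 FPKM against 13.4 and 9.18) were the only ones of a member that did not overlap, where 21% of genes did not overlap in this direction. *H2-K1* (0.51 ± 0.37), *H2-D1* (0.46 ± 0.30), *B2m* (0.41 ± 0.26), *Psmb9* (0.27 ± 0.40) and *Tap1* (0.26 ± 0.39) were above 0, and *H2-T23* was at 0.04 ± 0.34. *Psmb8* (-0.07 ± 0.46), *Tapbp* (-0.16 ± 0.29) and *Tap2* (-0.18 ± 0.24) were below 0. edgeR called 0 of the 10 members, with adjusted p-values of 0.519 to 0.989, and 0% of all genes, and 1 member (*H2-Q6*) had an unadjusted p-value under 0.05, against 3.72% of genes higher. DESeq2 called 0 members and 0.577% of genes. A p-value that misses the threshold does not show that the levels were alike. The sign of the median rested on the NC-7d libraries, since it was 0.90 with replicate 1 of that group left out and -0.21 with replicate 2 left out.

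**Figure D3:**
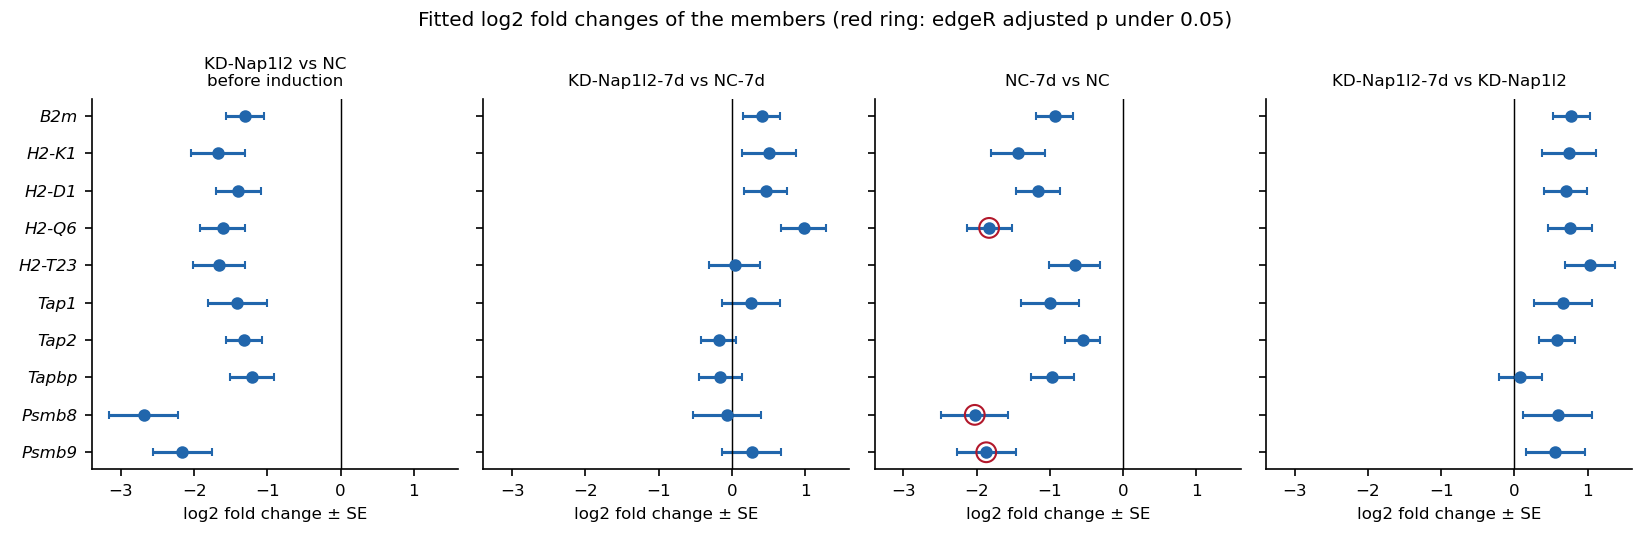
Fitted log2 fold change of each member (points) with its standard error (bars) in 4 contrasts, with a ring where the edgeR adjusted p-value was under 0.05. All points lie below 0 for KD-Nap1l2 against NC before induction and for NC-7d against NC, on both sides of 0 for KD-Nap1l2-7d against NC-7d, and above 0 for KD-Nap1l2-7d against KD-Nap1l2.

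Over the 7 days in the control cells, the fitted level of all 10 members was lower in NC-7d than in NC, by a median of -1.08 on the log2 scale. This contrast shares the NC libraries with the one that chose the members, so its calls are not independent of that choice. *Psmb8* fell by 2.03 (SE 0.46, edgeR adjusted p = 0.0351), *Psmb9* fell by 1.87 (SE 0.40, edgeR adjusted p = 0.0309), and *H2-Q6* fell by 1.83 (SE 0.31, edgeR adjusted p = 0.0132). *H2-K1* was at -1.43 ± 0.37, *H2-D1* at -1.16 ± 0.30, *Tap1* at -1.0 ± 0.40, *Tapbp* at -0.97 ± 0.29, *B2m* at -0.94 ± 0.26, *H2-T23* at -0.66 ± 0.34 and *Tap2* at -0.55 ± 0.24, none of them called. edgeR thus called 3 of 10 members lower, against 3.38% of genes, and DESeq2 called 8, against 4.75%. The libraries did not overlap for 9 of 10, all but *H2-T23*, against 28.4% of genes in this direction. The count of edgeR calls was 0 without NC replicate 1 or without NC replicate 2, 7 with NC-7d replicate 1 left out, and 1 with the other NC-7d library or either KD-Nap1l2-7d library left out.

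In the KD-Nap1l2 cells, the fitted level of all 10 was higher after 7 days than before, by a median of 0.68. The contrast shares the KD-Nap1l2 libraries with the one that chose the members. *H2-T23* was highest at 1.03 ± 0.35, followed by *B2m* (0.78 ± 0.26), *H2-Q6* (0.76 ± 0.30), *H2-K1* (0.75 ± 0.37) and *H2-D1* (0.70 ± 0.30). *Tap1* (0.67 ± 0.40), *Psmb8* (0.59 ± 0.47), *Tap2* (0.58 ± 0.24) and *Psmb9* (0.56 ± 0.40) were lower, and *Tapbp* was at 0.08 ± 0.29. edgeR called 0 members higher, with adjusted p-values from 0.0812 to 0.874, where it called 6.84% of genes higher. An unadjusted p-value under 0.05 was found for 5, against 15.3% of genes, and DESeq2 called *B2m* and *H2-T23*, against 8.14% of genes. The libraries did not overlap for 8 of 10, against 30.8% of genes in this direction. *Psmb8* was barely apart, with 5.31 CPM in the higher KD-Nap1l2 library and 5.33 in the lower KD-Nap1l2-7d library, and on FPKM it overlapped. edgeR called 4 when either NC-7d library, which is no part of this contrast, was left out.

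The difference between the knockdown contrasts, which is also the difference between the 2 induction contrasts, was positive for all 10 members, with a median of 1.78 on the log2 scale. It holds the contrast that chose the members, and is given as a description. *Psmb8* (2.62 ± 0.66), *H2-Q6* (2.59 ± 0.43) and *Psmb9* (2.43 ± 0.57) had the highest values, and *Tap2* (1.13 ± 0.34) and *Tapbp* (1.05 ± 0.41) the lowest. edgeR called 0 members and 0% of genes, 10 members had an unadjusted p-value under 0.05, against 3.5% of genes higher, and DESeq2 called 7 members, all but *Tap1*, *Tap2* and *Tapbp*, against 0.509% of genes higher. Without NC-7d replicate 1, edgeR called 2 members and the median was 2.44.

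For the proteasome genes, the share of the inducible subunit's RNA in the FPKM of each pair was followed. Protein was not measured here, so these shares do not give the make-up of assembled proteasomes. *Psmb8* made up 27.6% and 29.2% of *Psmb8* and *Psmb5* in NC, 6.46% and 5.25% in KD-Nap1l2, 10.8% and 4.30% in NC-7d, and 6.39% and 7.82% in KD-Nap1l2-7d. *Psmb9* made up 55.0% and 66.7% of *Psmb9* and *Psmb6* in NC, 27.8% and 23.4% in KD-Nap1l2, 38.7% and 23.7% in NC-7d, and 31.6% and 39.8% in KD-Nap1l2-7d. For *Psmb10*, which is no member, the share of *Psmb10* and *Psmb7* was 26.2% and 43.7% in NC, 13.3% and 8.41% in KD-Nap1l2, 27.4% and 16.7% in NC-7d, and 18.2% and 25.3% in KD-Nap1l2-7d. *Psmb9* exceeded its constitutive partner only in NC. *Psmb5*, *Psmb6* and *Psmb7* lay near 0, with fitted differences between -0.03 and 0.03 before induction and between -0.01 and 0.05 after 7 days. The 11 other 20S subunit genes, of which *Psmb1* had the highest level (151 to 182 FPKM), had a median of 0.02 before induction and 0.12 after 7 days, with 0 called by edgeR or DESeq2 in any contrast.

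**Figure D4:**
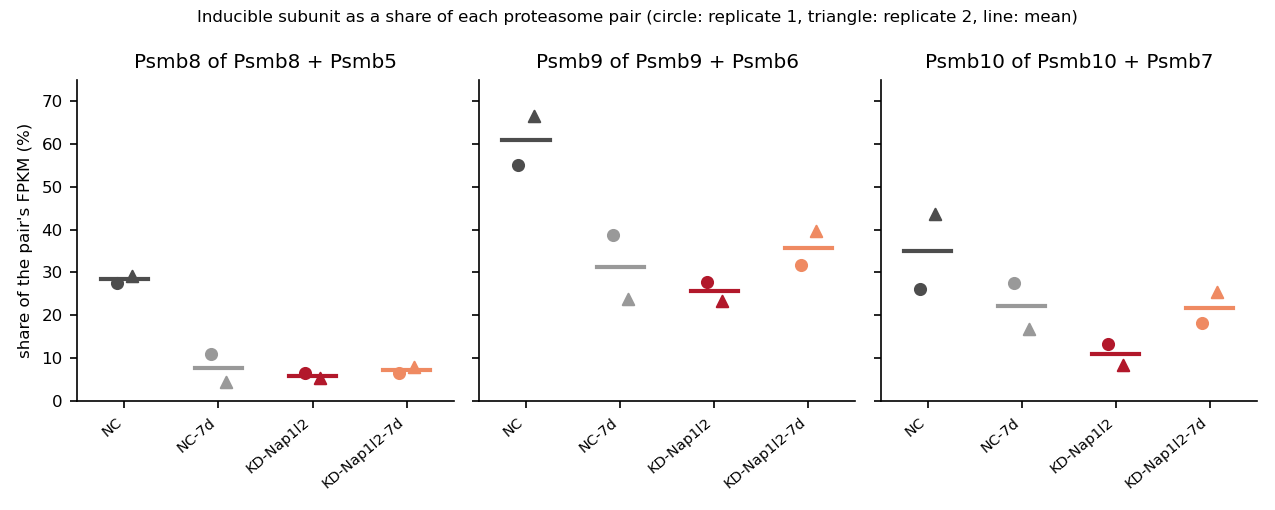
Share of the inducible subunit's RNA in the FPKM of each pair of proteasome genes, in percent (axis from 0), for the 4 groups. Circles are replicate 1, triangles replicate 2 and lines the mean; in NC, *Psmb8* and *Psmb9* hold higher shares than in the other 6 libraries, while for *Psmb10* the NC and NC-7d libraries overlap.

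The other genes of the pathway were taken from lists by role. Of 22 other class I heavy chain genes, 17 were in the table and 13 were tested, and 12 of the 13 had a lower fitted level in KD-Nap1l2 than in NC before induction, with a median of -1.37. DESeq2 called 8 of them lower there, against 2% of all genes, and edgeR 0. The gene lists were chosen with earlier results of these data known, so nothing is read from their counts before induction. In NC-7d against NC, where edgeR called 3.38% of all genes lower, it called 4 of the 13 lower. These were *H2-M3* (-1.62, edgeR adjusted p = 0.0181), which presents formylated peptides, *H2-Q1* (-1.41, edgeR adjusted p = 0.0455), *H2-Q4* (-1.39, edgeR adjusted p = 0.0287) and *H2-Q9* (-1.26, edgeR adjusted p = 0.0391). *H2-T22* had the highest mean level of the list over the 8 libraries, with 215 and 325 FPKM in NC, 115 and 80.5 in KD-Nap1l2, 258 and 87.7 in NC-7d, and 180 and 204 in KD-Nap1l2-7d. In KD-Nap1l2-7d against NC-7d the median of the 13 was 0.26, with 0 called by either tool. Reads of these genes may also be shared with *H2-K1*, *H2-D1* and *H2-Q6*.

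The loading and trimming factors differed among themselves. *Erap1*, which trims peptides in the endoplasmic reticulum, was at -1.33 ± 0.27 before induction, and *Tapbpl*, a relative of tapasin, at -1.73 ± 0.31. DESeq2 called these 2 of the 11 genes of the list lower, against 2% of all genes. *Calr* (-0.12), *Canx* (-0.09) and *Pdia3* (-0.16), genes of glycoprotein folding in the same list, lay near 0. *Calr* had the highest level of the list, at 602 to 947 FPKM over the 8 libraries. Of the proteasome activator genes, *Psme1* was at -1.29 ± 0.28 and *Psme2* at -0.84 ± 0.24, and the inducible subunit gene *Psmb10* was at -2.09 ± 0.53. DESeq2 called *Psme1* and *Psme2* lower, against 2% of all genes, but not *Psmb10*, and edgeR called none of them. The other gene of this list of 4 was at -0.02. After 7 days, KD-Nap1l2-7d against NC-7d gave *Psmb10* -0.08, *Psme1* -0.09, *Psme2* -0.05, *Erap1* -0.29 and *Tapbpl* -0.20, with 0 called by edgeR or DESeq2.

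The class I-like molecules, which share the fold of the heavy chains, stood on both sides of 0. Of 9 tested, 6 had a higher and 3 a lower fitted level in KD-Nap1l2 before induction, with a median of 0.26. DESeq2 called 1 of them higher, against 1.44% of all genes. *Fcgrt*, the neonatal Fc receptor gene and the highest of the list, had 133 and 104 FPKM in NC, 118 and 165 in KD-Nap1l2, 120 and 102 in NC-7d, and 102 and 110 in KD-Nap1l2-7d. *Ulbp1*, a ligand gene of the NKG2D receptor, was the only one called by edgeR, lower in KD-Nap1l2-7d than in KD-Nap1l2 (-1.44, edgeR adjusted p = 0.0139), where 7.36% of genes were called lower.

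**Figure D5:**
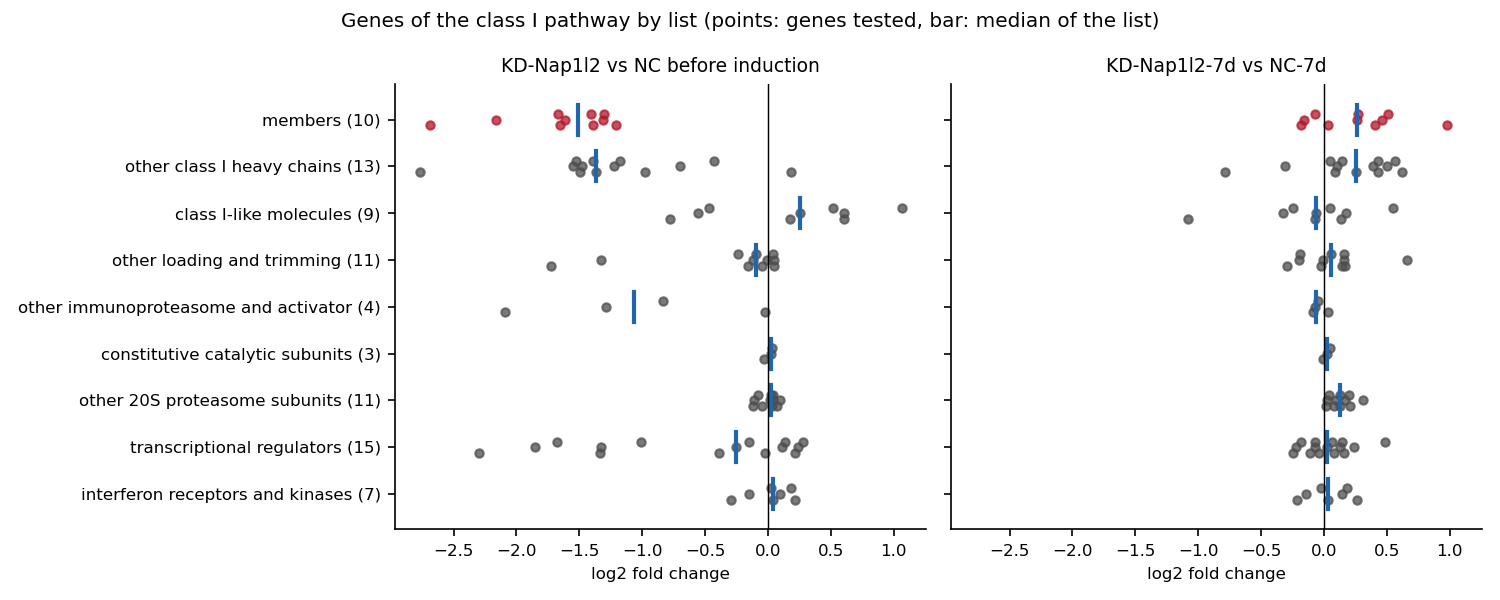
Fitted log2 fold changes of the tested genes of 9 lists (number of genes in brackets), for KD-Nap1l2 against NC before induction and for KD-Nap1l2-7d against NC-7d, with a bar at each list's median. Before induction the medians of the members and of the other heavy chains are at -1.51 and -1.37 and those of the constitutive and other 20S subunits near 0, and after 7 days the highest median is 0.26.

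Of 15 regulators of class I transcription tested, 10 had a lower fitted level in KD-Nap1l2 than in NC before induction, with a median of -0.25. There DESeq2 called 2 lower, against 2% of all genes, and edgeR 0. After 7 days, 7 of 15 were lower (median 0.02). *Nlrc5*, the class I transactivator gene, had 4.79 and 8.05 FPKM in NC, 2.49 and 1.12 in KD-Nap1l2, 5.17 and 2.78 in NC-7d, and 5.06 and 6.08 in KD-Nap1l2-7d. It was at -1.85 before induction and at 0.49 after 7 days, and it rose from KD-Nap1l2 to KD-Nap1l2-7d by 1.65 (edgeR adjusted p = 0.0402). *Irf1*, an interferon-induced factor that binds response elements of class I genes, had 83.1 and 99.4 FPKM in NC, 37.8 and 35.3 in KD-Nap1l2, 51.5 and 37.2 in NC-7d, and 42.6 and 56.3 in KD-Nap1l2-7d. *Irf1* fell from NC to NC-7d by 1.04 (edgeR adjusted p = 0.0255).

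*Rfx5*, a subunit of the factor that binds the X box, was lower after 7 days in both kinds of cells, by -0.70 in NC-7d (edgeR adjusted p = 0.0122) and -0.67 in KD-Nap1l2-7d (edgeR adjusted p = 0.0111). *Irf2* was higher in KD-Nap1l2-7d than in KD-Nap1l2 (0.56, edgeR adjusted p = 0.0223). The 7 interferon receptor and kinase genes had a median of 0.04 before induction and of 0.03 after 7 days, with 0 called by either tool, and *Ifnar2* had the highest mean level, at 52.3 to 81.5 FPKM. Of 10 interferon genes, 7 were in the table, none passed the filter, and the highest FPKM of any of them in a library was 0.84, for *Ifnb1* with 11 counts. *Ifne*, the highest on average, had 2 to 6 counts.

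Of the marker lists, *Thy1* and *Col3a1* were called lower in NC-7d than in NC, and *Thy1*, *Col1a1*, *Col1a2*, *Col3a1*, *Prrx1* and the endothelial marker *Tek* lower in KD-Nap1l2-7d than in KD-Nap1l2, all by edgeR. *Ly6a*, a mesenchymal marker that interferon also induces, had 1975 and 3578 FPKM in NC, 1219 and 845 in KD-Nap1l2, 2559 and 761 in NC-7d, and 1332 and 2250 in KD-Nap1l2-7d. The immune cell markers summed to 4.61 to 7.23 CPM in NC and to 6.17 to 6.96 in KD-Nap1l2, so these sums overlapped. *Lyz2* alone made up most of each sum, with 5.13 and 2.72 CPM for NC, then 4.51 and 5.87 for KD-Nap1l2. The overlap therefore says little about the other immune markers. Of the 2 tested, *Lyz2* had a higher fitted level in KD-Nap1l2 than in NC (0.40) and *Csf1r* a lower one (-0.88), neither called. After 7 days the immune sum was lower, at 1.82 and 3.89 CPM in NC-7d and at 4.39 and 4.58 in KD-Nap1l2-7d. The endothelial markers summed to 4.21 and 4.97 CPM in NC, 2.87 and 1.84 in NC-7d, 6.49 and 5.47 in KD-Nap1l2, and 1.65 and 1.77 in KD-Nap1l2-7d. Both sums were thus lower in NC-7d than in NC, as the members were. Both were also lower in KD-Nap1l2-7d than in KD-Nap1l2, where the members were higher, but in KD-Nap1l2 each sum was mostly 1 gene. *Tek* had 102 and 85 counts in KD-Nap1l2 and 10 and 16 in KD-Nap1l2-7d, and *Lyz2* 83.6 and 103 against 54.8 and 55.0. Of the 3 endothelial markers tested, *Pecam1* and *Cdh5* had a lower fitted level in KD-Nap1l2 than in NC, and *Tek* a higher one. The part of cells with these markers in the results was not tested.

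Outside the members, the genes whose log2 CPM followed the members' mean standardized level most closely over the 8 libraries, among 13460 genes, were *Gbp5* (r = 0.995), *H2-Bl* (r = 0.984), *Gbp4* (r = 0.981), *Gm8909* (r = 0.981) and *Irf1* (r = 0.980). *Gbp4* and *Gbp5* encode guanylate-binding proteins. *Gbp5* had 24.02 and 38.57 CPM in NC, 5.95 and 4.22 in KD-Nap1l2, 13.6 and 4.20 in NC-7d, and 10.2 and 12.5 in KD-Nap1l2-7d, high and low in the same libraries as *Psmb9* and *H2-K1*. The genes least like the members were *Zfp703* (r = -0.962), *Rassf3* (r = -0.955) and *Myo9b* (r = -0.941). These correlations are descriptions over 4 groups of 2 libraries, and *H2-Bl* is itself a heavy chain gene that may share reads with the members.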

How the data were processed

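RNA-seq libraries of C3H10T1/2 cells were grouped by their labels. The deposited gene and transcript tables hold RSEM estimated counts, without normalization, and FPKM, which the authors scaled to length and library reads. Their processing notes name BWA, Bowtie2, RSEM and GRCm38.p6, without versions, and library strand is not given in the sources used here. Tables of the authors' own comparisons (fold changes, p-values) were not used.

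Estimated counts of 18605 genes were rounded, scaled by TMM and filtered with filterByExpr, which kept 13470. A single model of the 4 groups was fitted to all libraries (R 4.3.3, edgeR 4.0.16, quasi-likelihood test), and a gene was called at a Benjamini-Hochberg adjusted p-value under 0.05. For log2 CPM the prior count was 2. Standard errors were derived from the F statistic. On simulated data for the contrast before induction (13470 genes), edgeR called 96 of 100 genes given a 4-fold change, 58 of 100 given a 2-fold change, and 6 unchanged genes. DESeq2 called 97, 78 and 31 of these. Where no change was simulated at 7 days, edgeR made 5 calls and DESeq2 26. The simulation used edgeR's own estimates of the spread and drew each gene independently of the others. It therefore cannot show which tool made more false calls on the real libraries. An exact test of 2 against 2 libraries cannot go below p = 0.333. Counting limits cover counting error only.

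Alternatives comprised DESeq2 1.42.0, RLE factors, no filter or at least 10 counts in every library, fits to only the libraries compared, a block for replicate number, a 2-fold minimum, limma 3.58.1 on log2 FPKM with a pseudocount of 1 or 0.1, and each library left out in turn. Motifs were searched with Python 3.11.15 in RefSeq promoter windows, and figures were drawn with matplotlib 3.10.9. The members and gene lists were chosen with earlier results of these data known. Named genes are the 10 members, pathway genes fixed by name, any listed gene that edgeR called, the gene of highest level in each pathway list, and the 5 most and 3 least similar genes. A gene that this rule names is not reported here.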

Additional observations from a re-analysis of the deposited data

Results flagged for a closer look

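On CPM, for 7 members both NC-7d libraries were below both NC libraries while both KD-Nap1l2-7d libraries were above both KD-Nap1l2 libraries. The change over 7 days thus ran in opposite directions in the 2 kinds of cells. Of all genes, 28.4% showed the first pattern and 30.8% the second. The share that showed both was not counted, so how unusual the result is remains unknown. For *Psmb8* this held on CPM only (5.31 against 5.33 in the nearest libraries of KD-Nap1l2 and KD-Nap1l2-7d), not on FPKM. The change in KD-Nap1l2 minus the change in NC, on the log2 scale, was 1.71 for *B2m*, 2.18 for *H2-K1*, 1.86 for *H2-D1*, 2.59 for *H2-Q6*, 1.67 for *Tap1*, 1.13 for *Tap2* and 2.62 for *Psmb8*. edgeR's test of the difference gave adjusted p-values of 0.343 to 0.651 for these 7. DESeq2 called it for 5 of them, not for *Tap1* and *Tap2*, against 0.509% of all genes called higher. The members were chosen with the contrast before induction known, and that contrast is part of this difference.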

How the results depend on the processing

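The median log2 fold change of the members kept its sign in every contrast under all alternatives except 1, and the count of members called moved far more than the median. Before induction, edgeR called 0 members, but DESeq2 10 and edgeR without a filter 8, and leaving out 1 library gave 0 to 8 (8 without either NC-7d library, 1 without KD-Nap1l2 replicate 1) with medians of -1.71 to -1.30. For KD-Nap1l2-7d against NC-7d, 0 members were called under any alternative, and the median ran from -0.21 to 0.90 without 1 library. For NC-7d against NC, 3 were called, but DESeq2 called 8, edgeR without a filter 6, only the libraries compared 1, and limma on log2(FPKM + 1) and on log2(FPKM + 0.1) 5 each, and without 1 library the count was 0 to 7 and the median -1.76 to -0.71. For KD-Nap1l2-7d against KD-Nap1l2, 0 were called, but DESeq2 called 2 and only the libraries compared 4, and without 1 library the count was 0 to 4 and the median 0.51 to 0.88. For the difference between the knockdown contrasts, 0 were called, but DESeq2 called 7, and without 1 library the count was 0 to 2 and the median 1.41 to 2.44. Where a library was left out, the lone library of its group is assumed to vary like the other groups, and the causes of these changes were not tested.

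Single members changed sign almost only in KD-Nap1l2-7d against NC-7d. *Psmb8* there turned from -0.07 to 0.047 and 0.078 with limma on log2(FPKM + 1) and log2(FPKM + 0.1) and to 0.0046 with the replicate block. Without 1 library, the log2 fold change ran from -0.65 to 0.87 for *Psmb8*, -0.40 to 0.069 for *Tap2*, -0.45 to 0.21 for *Tapbp*, -0.0036 to 1.30 for *H2-K1*, -0.39 to 0.64 for *H2-T23*, -0.24 to 1.02 for *Tap1* and -0.18 to 0.92 for *Psmb9*, and for *Tapbp* in KD-Nap1l2-7d against KD-Nap1l2 from -0.21 to 0.32. Over all genes before induction, edgeR called 11, DESeq2 453, edgeR without a filter 160, with at least 10 counts in every library 4, and with only the libraries compared 0.

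No pairing by the replicate numbers of the labels was seen, since deviations of same-numbered libraries correlated at -0.061 to 0.092 over genes. Low correlations cannot show that same-numbered libraries were prepared apart. With the number as a block, 0, 0, 3, 0 and 0 members were called in the 5 contrasts in the order above, with medians of -1.53, 0.31, -1.13, 0.70 and 1.83. The block changed no other call of a member.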
